A study of Rattus norvegicus with 4 samples.

Results

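The genes described here are 7 Krueppel-like factors, Klf2, Klf4, Klf5, Klf6, Klf9, Klf10 and Klf15, out of 14218 genes named on the array. They were found by symbol in the platform annotation, and each is represented by the probe set whose mean on the 4 arrays was highest. All 7 were above the floor that marks measurable signal on every array. Messenger RNA was measured on Affymetrix rat arrays in left kidneys of male Wistar rats of 300 to 480 g, after death by exsanguination, in an ex vivo model of kidney donation after cardiac death. Every kidney stayed in the body for 29 min of warm ischaemia, was flushed, and then spent 3 h on a machine that pumped cold University of Wisconsin solution, an organ preservation fluid, through it, so no group is a fresh kidney. The cold group ended there. The warm group went on to 30 min of perfusion with warm, oxygenated, modified Krebs-Henseleit buffer, a balanced salt medium. The heparin group had low molecular weight heparin, and the PPS group PPS, an abbreviation that the labels do not spell out, at 10 IU/ml in both the cold and the warm perfusate. Each group is 1 array of RNA pooled in equal amounts from 3 kidneys, which the submitters picked for RNA quality. There is thus no spread between replicates, no p-value is given, and a difference of at least 1 on the log2 scale, which is 2-fold, is called higher or lower.

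Krueppel-like factors are transcription factors that bind GC-rich and CACCC-containing DNA through C2H2 zinc fingers at the end of the protein. Several of them are switched on within minutes of a stimulus. In endothelial cells, laminar flow induces Klf2 and Klf4, which hold down inflammatory and clotting genes and hold up vasodilator genes. Klf6 is induced by injury in endothelial and epithelial cells, and Klf10 was found as an early gene of the TGF-beta response. These 4 are called flow- and stress-induced below. Among the other 3, Klf5 is a growth-linked factor of epithelia that in kidney is found in the collecting duct, and Klf9 and Klf15 are induced by glucocorticoids, with Klf15 a regulator of amino acid and glucose metabolism.

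The RefSeq table of the rat assembly GRCr8 holds promoter windows for 5 of the 7 members, Klf4, Klf5, Klf6, Klf9 and Klf15; Klf2 and Klf10 are named only. Shown here are the 250 bases before the start of 2 members that differed between the arrays, Klf6 and Klf5, and of 1 that did not, Klf9, so that the letters can be read beside the values. Capitals mark matches, on either strand, to CCAAT, to the CArG box (CC, then 6 bases of A or T, then GG), to the E-box CACGTG, to the GC box GGGCGG, to the CRE core TGACG and to the AP-1 site TGANTCA. The windows are chr17:69458479-69458728 on the minus strand for Klf6, chr15:82471831-82472080 on the plus strand for Klf5 and chr1:230126396-230126645 on the plus strand for Klf9, all upstream of the gene.
Klf6: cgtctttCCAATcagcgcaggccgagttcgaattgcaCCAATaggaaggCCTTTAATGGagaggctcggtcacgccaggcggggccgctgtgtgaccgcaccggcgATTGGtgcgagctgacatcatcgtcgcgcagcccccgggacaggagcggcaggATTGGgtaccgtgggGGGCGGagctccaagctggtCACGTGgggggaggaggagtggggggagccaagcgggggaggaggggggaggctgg
Klf5: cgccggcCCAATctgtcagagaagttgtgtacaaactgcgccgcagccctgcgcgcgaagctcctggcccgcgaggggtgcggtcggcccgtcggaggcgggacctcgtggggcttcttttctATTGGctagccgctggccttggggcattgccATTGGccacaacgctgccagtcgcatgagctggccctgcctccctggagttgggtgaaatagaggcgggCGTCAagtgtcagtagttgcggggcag
Klf9: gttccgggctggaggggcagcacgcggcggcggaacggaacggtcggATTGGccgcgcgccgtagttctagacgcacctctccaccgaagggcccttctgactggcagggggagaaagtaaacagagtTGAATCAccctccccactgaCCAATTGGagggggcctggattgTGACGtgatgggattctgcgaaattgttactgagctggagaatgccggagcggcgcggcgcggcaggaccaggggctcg

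Klf6 had 4 CCAAT matches, Klf5 had 3 and Klf9 had 3, of which a pair in Klf9 overlap on opposite strands; 34.0% of all 33469 windows of the table hold at least 1. The Klf6 window was the only 1 of the 5 with a CArG box, the binding site of serum response factor, 201 bases before the start, a motif that 1.5% of all windows hold. Klf6 also held an E-box (5.59% of windows) and a GC box (30.5%). Klf5 and Klf9 each held a CRE core (18.2%), and Klf9 an AP-1 site (6.34%). CACCC, a motif that Krueppel-like factors bind, was matched 2 times in Klf5 and 1 time in Klf9 (49.2% of windows). The MEF2 box, the full CRE TGACGTCA, the EGR box GCGNGGGCG, the GRE-like motif, the NF-kappaB motif, the heat shock element GAANNTTC and TATAAA had 0 matches in these 3 windows. The windows of Klf4 and Klf15 begin inside the annotated gene and are not shown; Klf4 held 2 TATAAA matches, and Klf15 held 2 CRE cores, 1 E-box, 1 CCAAT and 1 CACCC match. GC content was 67.2% for Klf6, 65.2% for Klf5 and 63.6% for Klf9, where the median of all windows was 51.2%. These matches describe the letters only.

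**Figure D1:**
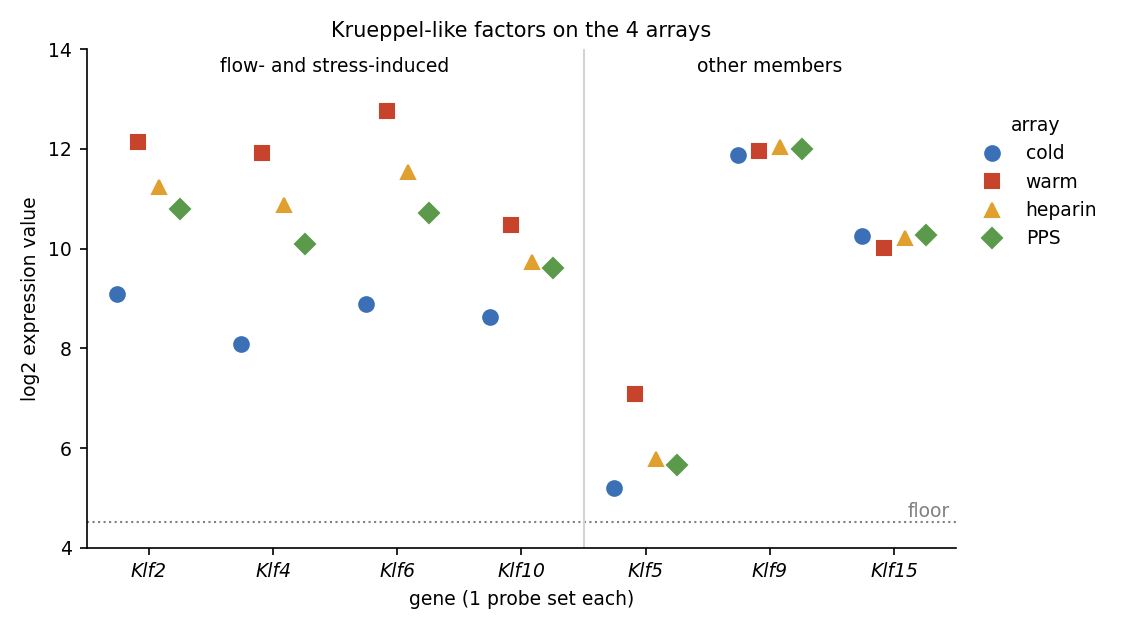
Log2 expression value (y axis) of each of the 7 Krueppel-like factors (x axis) on the cold, warm, heparin and PPS arrays, 1 point per array; the dotted line is the floor of 4.51, and heights are to be compared within a gene only. For Klf2, Klf4, Klf6, Klf10 and Klf5 the warm array is highest and the cold array lowest, while the points of Klf9 and Klf15 span 0.15 and 0.26.

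Warm oxygenated perfusion was set against cold perfusion alone to see what the simulated reperfusion adds. All 4 flow- and stress-induced members were higher on the warm array by 2-fold or more, and so was Klf5. Klf9 and Klf15 stayed within the limit. In all, 5 of 7 members were higher, where 2.48% of the 9394 genes above the floor were, and 0 were lower. The median log2 difference was 3.43 over the 4 flow- and stress-induced members, 0.08 over the other 3 and -0.0033 over all genes. Members and grouping were chosen with earlier results of these data known, so these contrasts are a description only.

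Klf6, the injury-induced member, had log2 values of 8.89 (cold), 12.76 (warm), 11.53 (heparin) and 10.72 (PPS). The cold array stood lowest and the warm array highest, and the warm value was 14.7-fold above the cold one, the 26th largest difference in that direction among all genes. Klf4, a flow-induced factor that also acts in epithelial differentiation, had values of 8.09, 11.91, 10.88 and 10.08 in the same order of arrays. It was 14.2-fold higher on the warm than on the cold array and ranked 27th. Klf2, the other flow-induced factor, had values of 9.10, 12.14, 11.24 and 10.80. Its warm value was 8.24-fold above the cold one and ranked 40th.

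Klf10, the TGF-beta early gene, differed less than these 3, with values of 8.64 (cold), 10.47 (warm), 9.74 (heparin) and 9.62 (PPS). That is a 3.57-fold difference between warm and cold, ranked 81st. Klf5, the epithelial factor, had values of 5.20, 7.08, 5.78 and 5.66, nearer to the floor than any other member. It was 3.68-fold higher on the warm array and ranked 76th, close to Klf10, although it had been grouped with Klf9 and Klf15. A stricter floor at the 60th percentile of all values leaves Klf5 a difference of 0.35, since 3 of its 4 values lie below that floor.

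The 2 glucocorticoid-linked members were nearly level. Klf9 had values of 11.88 (cold), 11.96 (warm), 12.03 (heparin) and 12.002 (PPS), a range of 0.15. Klf15 had values of 10.26, 10.02, 10.22 and 10.28, a range of 0.26, with the warm array lowest. Of all genes, 5.22% had a range over the 4 arrays of at least 2-fold, against 5 of the 7 members.

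The cold array also differed in its controls. Poly-A controls are transcripts of bacterial genes, and their 24 probe sets were all higher on the warm than on the cold array, by a median of 1.25, and differed from warm by medians of 0.08 (heparin) and -0.10 (PPS). The 18 probe sets for hybridisation controls were shifted as well, by medians of 0.44 in warm minus cold, -0.28 with heparin and 0.17 with PPS against warm. Between heparin and PPS they differed by -0.47, opposite in sign to the poly-A controls (0.18). When arrays were scaled by the poly-A controls, the median gene moved by -1.13 between cold and warm. On that scale Klf6 still differed by 2.75, Klf4 by 2.70 and Klf2 by 1.91, Klf5 (0.75) and Klf10 (0.71) fell short of the limit, and Klf9 (-1.05) and Klf15 (-1.37) were lower, near the shift of the median gene. The 3' to 5' difference of beta-actin probe sets, a measure of RNA integrity, was 2.79 on the cold and 3.19 to 3.39 on the other arrays. The part of the spiked control amount and RNA quality in warm minus cold was not tested.

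**Figure D2:**
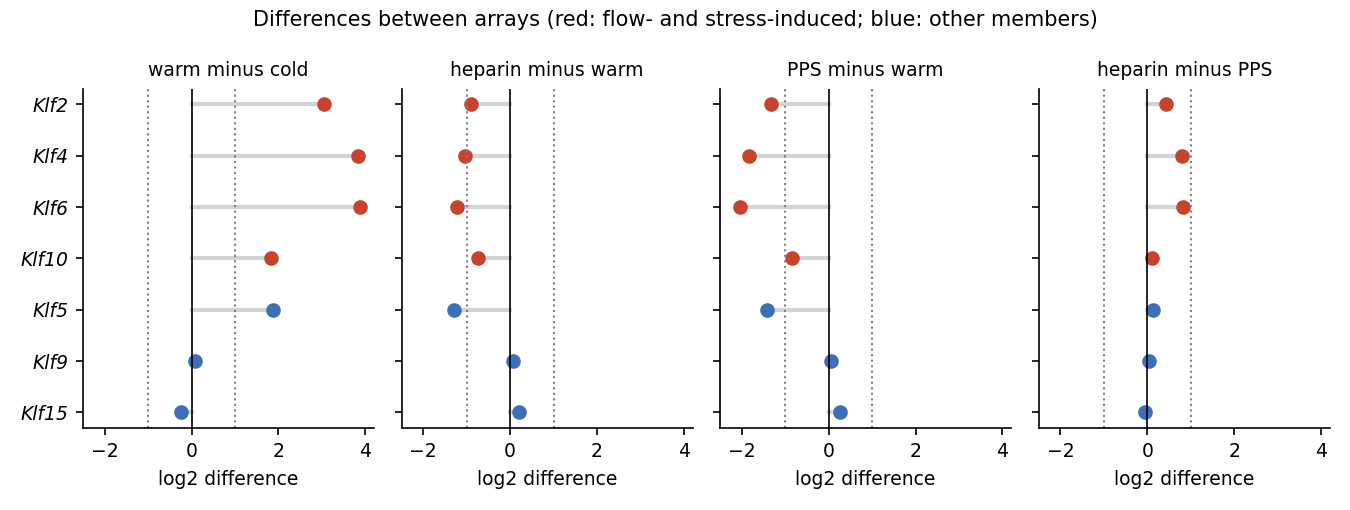
Log2 difference (x axis) for each member (y axis) in 4 panels, warm against cold, each supplement against warm, and heparin against PPS; points are single differences between 2 arrays, with no error, and dotted lines mark the 2-fold limit. Beyond 1 lie 5 members for warm against cold, below -1 lie 3 for heparin and 4 for PPS against warm, and no member passes the limit between the supplements.

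Low molecular weight heparin and PPS were tested as anti-inflammatory additions to the perfusates. With heparin, the 5 members that were high on the warm array were all lower than there, 3 of them by 2-fold or more. These were Klf5 (2.46-fold lower), Klf6 (2.35-fold) and Klf4 (2.05-fold), where 1.48% of all genes were lower by that size. Klf2 (-0.90 on the log2 scale) and Klf10 (-0.73) did not reach the limit, although Klf2 did on the poly-A control scale (-1.03). Klf9 differed by 0.07 and Klf15 by 0.20. The median was -0.97 over the flow- and stress-induced members, 0.07 over the others and 0 over all genes.

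With PPS, 4 of 7 members were lower than on the warm array by 2-fold or more, against 1.71% of all genes. Klf6 was 4.13-fold lower and ranked 33rd from the lowest, Klf4 3.56-fold, Klf5 2.68-fold and Klf2 2.53-fold lower. Klf10 differed by -0.85, short of the limit. Klf9 (0.04) and Klf15 (0.26) were slightly above their warm values, as with heparin. The median was -1.58 over the flow- and stress-induced members and 0.04 over the others. Both supplement comparisons use the same single warm array, as does warm minus cold, so the 3 are not independent.

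Between the supplements, no member passed the limit, which 0.490% of all genes did in either direction. Klf6 and Klf4 came closest, 1.75-fold and 1.73-fold higher with heparin than with PPS, and ranked 42nd and 46th from the highest of 9394 genes. Klf2 differed by 0.44. For Klf10 (0.12), Klf5 (0.12), Klf9 (0.03) and Klf15 (-0.06) the difference was smaller than the SD of this difference over genes, 0.23, which is a spread between genes and not between replicates. The test of a difference between heparin and PPS would need replicate arrays.

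Neither supplement brought the largest differences back to the level of the cold array. In heparin minus cold 4 members were still higher by 2-fold or more, against 1.17% of all genes: Klf4 (6.91-fold), Klf6 (6.24-fold), Klf2 (4.42-fold) and Klf10 (2.14-fold). In PPS minus cold 3 members were, against 1.03% of all genes: Klf4 (3.99-fold), Klf6 (3.56-fold) and Klf2 (3.26-fold), with Klf10 just under the limit at 1.97-fold. Klf5 was within the limit on both, at 1.5-fold with heparin and 1.37-fold with PPS. On the scale set by the poly-A controls, Klf4 (1.53) and Klf6 (1.38) alone were higher than cold past the limit with heparin, and no member with PPS.

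The order of the arrays from high to low was warm, heparin, PPS, cold for 5 members, Klf2, Klf4, Klf5, Klf6 and Klf10. Of all genes, 6.22% had this order, and of the 233 genes that were 2-fold higher in warm minus cold, 110 had it. The step from heparin down to PPS is within 1 for each of the 5, and for Klf5 and Klf10 it turned to -0.08 and -0.09 on the poly-A control scale. The step from PPS down to cold was 1.99 for Klf4, 1.83 for Klf6, 1.70 for Klf2 and 0.98 for Klf10, but 0.46 for Klf5. For Klf5 the largest step was instead from warm to heparin, 1.30.

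**Figure D3:**
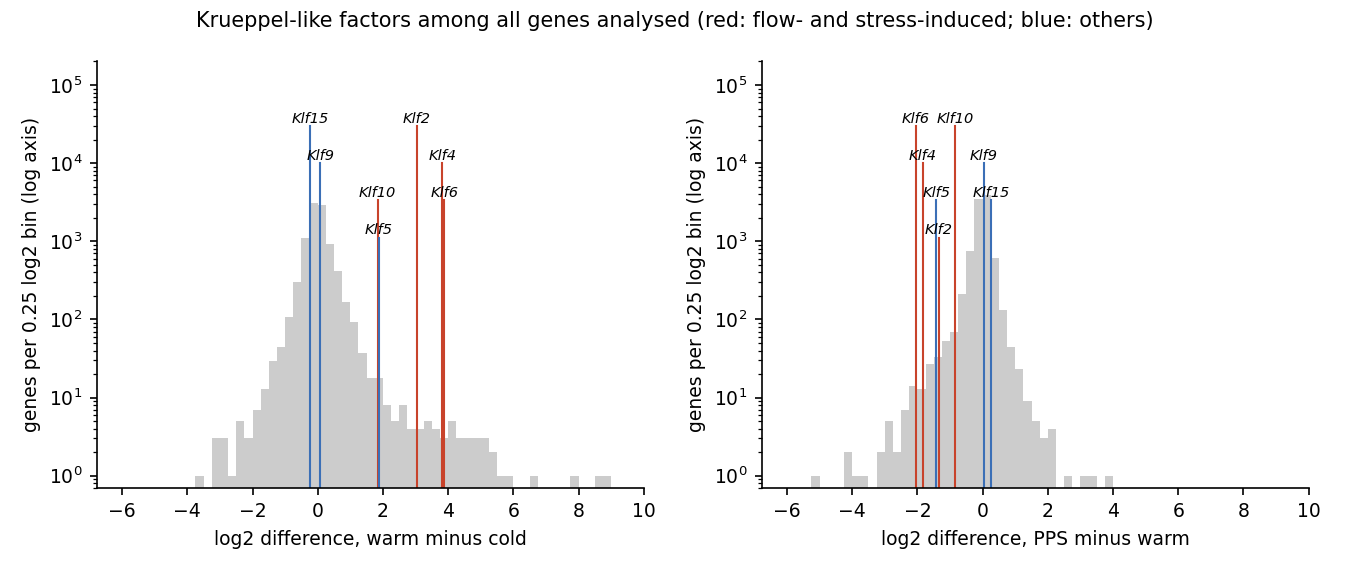
Number of genes per 0.25 bin (y axis, log scale) of the log2 difference (x axis) in warm minus cold and in PPS minus warm for all 9394 genes above the floor; coloured lines mark the 7 members, and their height has no meaning. Klf2, Klf4 and Klf6 lie in the thin right tail of warm minus cold, Klf9 and Klf15 near the centre.

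The array holds 20 probe sets for the 7 members, of which 12 were above the floor on at least 1 array. Klf4 and Klf10 have 1 probe set each. Beside the chosen ones, 5 were above the floor. They had the direction of the chosen probe set in 5 of 5 cases between warm and cold, 5 of 5 between heparin and warm and 4 of 5 between PPS and warm. The Klf5 probe set among them was above the floor on the warm array alone. Its direction was thus fixed by that filter and adds no support to these counts. The second Klf2 probe set had values of 6.47, 10.21, 8.70 and 8.47 on the cold, warm, heparin and PPS arrays. With it, Klf2 was 13.4-fold higher on the warm than on the cold array, and it passed the limit with heparin too (-1.52), where the chosen probe set did not. The other 3 Klf2 probe sets were below the floor on all arrays, and the mean over all 5 gave 1.36 for warm minus cold and -0.61 for PPS minus warm.

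The 2 further Klf6 probe sets had values of 8.53, 11.98, 10.57 and 9.90, and of 6.10, 10.85, 8.96 and 8.14. Their warm minus cold differences were 3.45 and 4.75, so all 3 Klf6 probe sets placed the gene more than 10-fold higher on the warm array. For PPS minus warm they gave -2.08 and -2.71. The second Klf5 probe set was above the floor on the warm array alone, at 5.82, which makes Klf5 at least 2.47-fold higher there than on each other array. The second Klf15 probe set had values of 8.26, 7.85, 8.08 and 7.77; it too was lower on the warm than on the cold array (-0.42) and was the 1 that went the other way in PPS minus warm (-0.07).

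**Figure D4:**
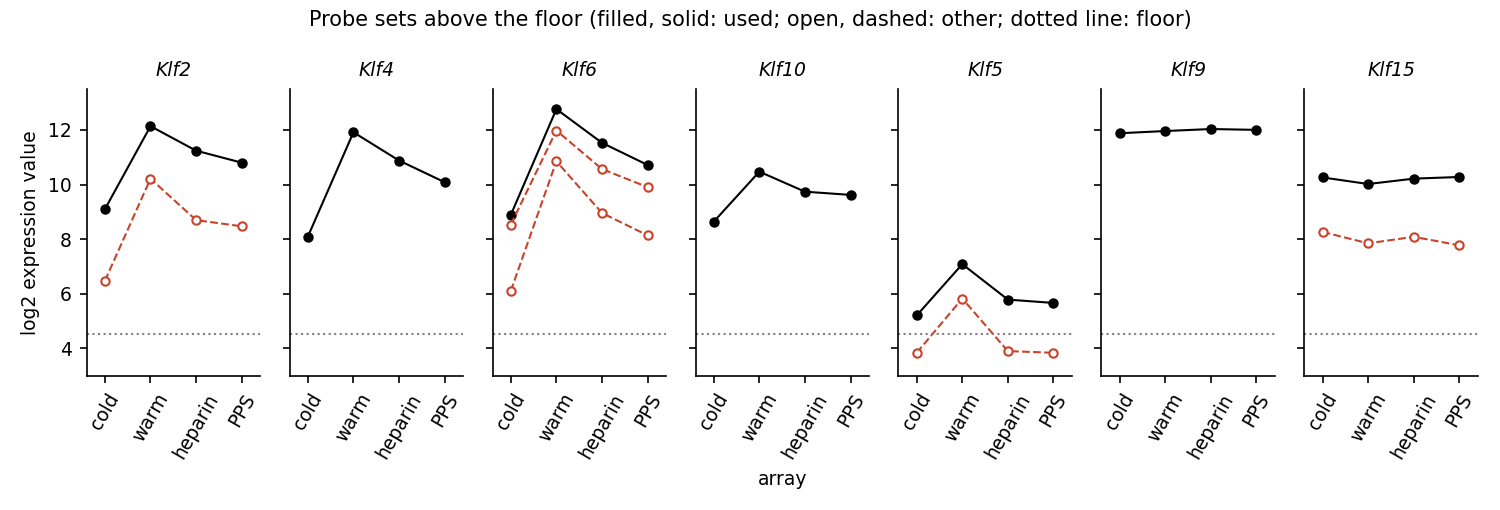
Log2 expression value (y axis) on the 4 arrays (x axis) for each probe set of a member that was above the floor on at least 1 array; filled points with solid lines are the probe sets used, open points with dashed lines the others, and the dotted line is the floor. Both Klf2 and all 3 Klf6 probe sets peak on the warm array, and the second Klf5 probe set is above the floor there only.

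Most other genes of the family were nearly level. Of 20 further Krueppel-like and SP factors listed, 11 are named on the array and 8 were above the floor, and 0 of these 8 passed the limit between warm and cold or between either supplement and warm. Their median warm minus cold difference was 0.21. Klf11, another TGF-beta-inducible member, had the largest difference, with values of 7.62, 8.35, 7.96 and 7.94 (0.73 in warm minus cold). A second Klf11 probe set, not measurable on the cold array, reached 5.99 on the warm array, at least 2.78-fold higher. Klf12, a repressor, had the lowest (-0.52), and Klf3, Klf7, Klf13, Klf16, Sp1 and Sp2 lay between 0 and 0.30. Sp2 was the furthest from 0 in heparin minus warm (-0.78).

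No measured gene of the pathway that carries flow signals to Klf2 and Klf4 differed by 2-fold. Of 19 genes listed for it, 17 are named on the array, and Cdh5 and Map3k2 are not. Of 16 measured genes for flow sensors, kinases upstream of ERK5, MEF2 factors, their histone deacetylase partners and the CCM proteins, 0 passed the limit in any of the 6 comparisons; Mapk7, which encodes ERK5 itself, was below the floor on all arrays. In warm minus cold 12 of these 16 were above 0 (median 0.21), where 4325 of all 9394 genes were. The 4 below 0 included Trpv4 (-0.32) and Map2k5 (-0.23). With PPS 13 of 16 were below warm (median -0.13), where 4642 of all genes were. These differences are small: the SD of warm minus cold over genes was 0.46, and the shift on the poly-A control scale was -1.13. Of 16 measured genes known as endothelial targets of Klf2 or Klf4, 3 were higher on the warm array, against 2.48% of all genes. These were Adm, the vasodilator peptide adrenomedullin (2.73), Ptgs2, the inducible prostaglandin synthase (2.58), and Nqo1, a quinone reductase (1.06). With PPS, Adm (-1.44), Ptgs2 (-1.17) and the monocyte chemokine Ccl2 (-1.15) were lower, and with heparin Adm (-1.07) and Ccl2 (-1.002) were. Of all genes, 1.71% were lower by 2-fold with PPS and 1.48% with heparin. The median of this list was 0.43 for warm against cold, -0.21 for heparin and -0.30 for PPS against warm. The list mixes genes that these factors induce with genes that they repress, such as Ccl2, so its median has no single direction to be read against. It also holds Cnp, which encodes a cyclic nucleotide phosphodiesterase and is no known target, and without it, a choice made after seeing the data, the medians over 15 genes were 0.48, -0.21 and -0.31.

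Endothelial cell markers differed less than Klf2 and Klf4. All 10 that the array names were above the floor, 8 of 10 were higher on the warm array and 0 passed the limit, with a median of 0.34. Vwf, von Willebrand factor, named after its values were seen, went the other way, by -0.95 in warm minus cold and by -1.59, past the limit, in heparin minus cold. Their summed level ranged over 0.32 on the log2 scale across the 4 arrays (13.17 cold, 13.44 warm, 13.23 heparin, 13.12 PPS), while Klf2 and Klf4 ranged over 3.04 and 3.83. In whole kidney, more cells of a type and more RNA per cell cannot be told apart. As a check of the kidney label, 9 of 10 proximal tubule markers were above the floor, and 0 of 5 adrenal markers.

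For Klf9 and Klf15, genes that respond to glucocorticoids and clock genes were read alongside. Of 16 measured glucocorticoid-response genes 6 were higher on the warm array, against 2.48% of all genes. They included the phosphatase Dusp1 (4.79) and the transcription factors Cebpd (3.09) and Cebpb (1.49). The others were the clock gene Per1 (2.20), the NF-kappaB inhibitor Nfkbia (1.86) and the mTOR inhibitor Ddit4 (1.70). All 6 also respond to other stress signals. The list was not uniform: 11 of 16 were above 0 and 5 below, with a median of 0.59. Below 0 were, among others, Fkbp5 (-0.62), Errfi1 (-0.26) and Tsc22d3 (-0.15). Above 0 but within the limit were, among others, Mt2A (0.72) and Sgk1 (0.26). These 5 genes were named after their values were seen. The part of glucocorticoids in these values was not tested. Against warm, 2 of 16 were lower with heparin (Per1 and Cebpd) and 5 with PPS (Per1, Cebpd, Dusp1, Nfkbia and Cebpb). Over all genes, 1.48% and 1.71% were. Of 17 clock genes 3 were higher on the warm array, Nr1d1 (2.42), Per1 and Nfil3 (1.14), against the same 2.48% of all genes. Of 16 genes of amino acid and lipid metabolism linked to Klf15, 0 passed the limit in any comparison, with a median of -0.02 in warm minus cold and 0.03 in heparin minus warm, beside a difference for Klf15 of -0.24 and 0.20.

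Beside Klf10, 3 of 14 measured genes of TGF-beta signalling and early response were higher on the warm array, against 2.48% of all genes. These were the inhibitor of differentiation Id1 (1.84), the pseudoreceptor Bambi (1.25) and the matricellular gene Ccn2 (1.02), and the median of the list was 0.09. Beside Klf5, all 18 measured genes of the list of collecting duct and Klf5-linked genes had warm values above cold. Of all 9394 genes, 4325 did. On this list 5 passed the limit, against 2.48% of all genes. Past it were Cldn4, a tight junction claudin (2.18), the epithelial factor Elf3 (2.04), the keratins Krt19 (1.91) and Krt18 (1.86), and the water channel Aqp4 (1.61). Aqp2 (0.07), Aqp3 (0.02), Avpr2 (0.08) and Krt7 (0.17) of the same list were nearly level. All 18 had values below warm with heparin and with PPS, with medians of -0.65 and -0.53. Over all genes, 4348 and 4642 did. Lower by 2-fold were 3 of the 18 with heparin and 4 with PPS, against 1.48% and 1.71% of all genes. The shift of -1.13 on the poly-A control scale exceeds the median warm minus cold difference of this list, 0.73. Markers of smooth muscle, pericytes and fibroblasts had a median of -1.29 in warm minus cold, with 7 of 7 measured markers below 0 and 5 of them past the limit (Cnn1 and Rgs5 were at the floor), and of 0.56 with heparin and 0.79 with PPS against warm. All 5 podocyte markers had warm values above cold, 2 of them past the limit, with a median of 0.95, and all 5 were below warm with heparin (median -0.45); their summed level ran from 11.75 (cold) to 12.56 (warm). Of 6 fat cell markers, Adipoq, Plin1, Lep and Cfd were at the floor, and both others were lower by 2-fold with heparin than warm (median -1.53). The part of these marker differences in the values of the members was not tested.

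Genes with the most similar values over the 4 arrays were found by the Euclidean distance between log2 values after each gene was centred on its own mean. Among the 9394 genes analysed, Klf6 was the second nearest to Klf4 and Klf4 the third nearest to Klf6, at a distance of 0.19, where the median distance of all genes was 2.81 from Klf4. Depp1 was the nearest to both Klf6 (0.06) and Klf4 (0.18), with its cold value at the floor, and Csrnp1 was also among the 3 nearest to each. For Klf2 the nearest were Tnfaip3 (0.27), Ptgs2 (0.33) and Jun (0.35), farther off than for the other members, and Klf2 lay 0.61 from Klf4. For Klf10 the nearest were Id1 (0.04), Sowahc (0.07) and Ddit4 (0.11), and for Klf5 Icam1 (0.13), Elf3 (0.16) and Tnfrsf12a (0.19). Klf9 and Klf15 lay 0.24 apart, but most genes lie close to them, with median distances of 0.25 and 0.29; their nearest were Mcur1, Znrf1 and St3gal2 for Klf9 and Slc31a1, Uqcc3 and Slc16a13 for Klf15. Over 4 arrays such likeness is a description only.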

How the data were processed

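The authors deposited 1 table of log2 expression values per probe set for 4 arrays. No label states the scale, and it was taken as log2 from the range of 2.11 to 16.38. GCRMA, which corrects background, normalizes and summarizes Affymetrix probes, is named in the submitters' processing notes, with its version not given in the sources used here. It gives arrays nearly equal distributions, so a change in total messenger RNA would not be seen, and sets weak probe sets to a common low value.

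Of 31099 probe sets, 57 are controls, 6 of them with a symbol, 20832 have 1 symbol (these 6 included), 436 have several (not used) and 9780 are unnamed here. Symbols were updated by Entrez identifier to GRCr8 (20764 found). For 14218 genes the probe set with the highest mean was taken. Values below the 50th percentile of all values, 4.51, were raised to it, and 9394 genes above it on at least 1 array were analysed; a fold with 1 side at the floor is a lower bound. Python 3.11.15, numpy 2.4.6 and pandas 2.3.3 were used. The size limit was also run on simulated data, with less noise than the spread between genes here and with changes set beyond the limit. That run cannot show how the limit performs on these arrays. The number of arrays limits the precision.

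All 7 members are named, with family genes above the floor, up to 6 genes past the limit per list and the 3 nearest genes per member. The members, grouping and lists were chosen with earlier results of these data known. Alternatives were other floors, scalings, limits and the mean over probe sets. Promoter motifs were searched on both strands of the 250 bases before each start. A planned protein comparison was not made.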

Additional observations from a re-analysis of the deposited data

Results flagged for a closer look

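Of 5 member probe sets that were above the floor but not used for the main values, 4 were higher on the warm than on the cold control array. The second Klf15 probe set was lower on the warm array (-0.42), and 8 others were below the floor on all arrays. The second Klf2 probe set differed by 3.74, the 2 further Klf6 probe sets by 3.45 and 4.75, and the second Klf5 probe set, with its cold side at the floor, by 1.31. All 4 passed the limit in the same direction as the chosen probe sets, and the Klf2 one and 1 of the Klf6 ones differed by more than those. The direction of the Klf5 probe set was fixed in advance, since it was above the floor on the warm array alone. No test accompanies these values, since each group is 1 array.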

How the results depend on the processing

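No paired analysis was possible because each group is 1 array, and no array could be left out for the same reason. Without a floor, with the floor at the 40th percentile, with arrays centred on the median and with quantile normalization, all counts of members past the limit and all medians of the 2 member groups stayed on their side of the limit. With the floor at the 60th percentile, Klf5 fell within the limit in warm minus cold (0.35), and with heparin and PPS, without moving a member count by over 1.5 times. With the mean over all probe sets, which lets silent probe sets in, 2 members were lower in PPS minus warm, Klf5 had no value and Klf2 differed by 1.36 in warm minus cold. Scaling to the poly-A controls gave 3 members higher and 2 lower in warm minus cold, 2 higher and 2 lower in heparin minus cold, and 0 higher and 1 lower in PPS minus cold. Group medians on that scale were -1.05 (others, warm minus cold), -1.10 (flow- and stress-induced, heparin minus warm), -1.10 (others, heparin minus cold) and 0.72 (flow- and stress-induced, PPS minus cold), and Klf10 turned to -0.16 in heparin minus cold. That follows from the shift of the median gene by -1.13 (warm), -1.25 (heparin) and -1.05 (PPS) against cold. Each of these is itself past the limit, so on that scale most genes count as lower than cold. At a limit of 1.5-fold, 5 members were lower with heparin than warm (median of the flow- and stress-induced members -0.97) and 2 were higher with heparin than PPS (median 0.62). At 3-fold, 0 were lower with heparin and 2 with PPS (median -1.58). At each of these 2 limits all 12 counts of all genes moved by over 1.5 times as well. Member counts at these limits, with poly-A scaling and with the mean over probe sets are given without the share of all genes. They are not a result about the members. Counts of all genes varied more: apart from the poly-A scaling and other limits, genes higher in warm minus cold numbered 165 to 270, genes lower in PPS minus warm 110 to 186 and genes lower in heparin minus warm 94 to 166.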
